A study of Mus musculus with 6 samples.

Results

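The genes described here control glucose uptake, the committed steps of glycolysis, the fate of pyruvate and the transcriptional response to low oxygen in mouse lung. They were chosen by name: Slc2a1, Hk1, Hk2, Pfkl, Pfkp, Ldha, Pdk1, Pdk4, Hif1a and Epas1. Every probe set whose only platform gene symbol was one of these 10 names was taken, which gave 24 of the 45101 probe sets on the array. Of these 24, 21 passed a filter on dim signals, and all 10 genes kept at least 1 probe set. RNA of whole lung homogenate was hybridised to Affymetrix mouse arrays, 1 for each of 6 female FVB/N mice, which formed 3 groups of 2. Control mice carried the SM22-rtTA transgene alone, a doxycycline-activated transactivator under the promoter of the smooth muscle gene SM22. The other mice were heterozygous for SM22-rtTA and for TetO7-BMPR2-R899X, a doxycycline-responsive gene for a truncated BMP type 2 receptor. In 2 of them the systolic pressure of the right ventricle (RVSP) was close to normal, and in the other 2 it was high. Doxycycline was given to all mice, controls included, for 9 weeks starting at an age of 4 weeks, and lungs were taken at 13 weeks. The SM22 promoter directs the transgene to smooth muscle, whereas the RNA came from all cells of the lung. In such RNA, fewer cells of a type and less RNA per cell cannot be told apart.

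In glycolysis, glucose enters the cell through transporters such as GLUT1, is trapped by hexokinases, is committed to breakdown by phosphofructokinase and leaves the pathway as pyruvate. Pyruvate is either reduced to lactate by lactate dehydrogenase or enters the mitochondrion, where the pyruvate dehydrogenase kinases (PDKs) hold back its oxidation. HIF-1 alpha and HIF-2 alpha, the products of Hif1a and Epas1, are degraded when oxygen is present and otherwise pair with ARNT to activate target genes. Because oxygen acts on these proteins, their messages can stay level while their activity changes. Several glycolytic genes are classical HIF-1 targets, and a shift from glucose oxidation towards glycolysis has been described in pulmonary hypertension. HIF-2 alpha is abundant in lung endothelium.

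HIF dimers bind DNA at a short core, ACGTG or GCGTG. The 250 bases before each annotated start were searched for both cores on both strands, in RefSeq promoter sequences of mouse build GRCm38.p6. The palindrome CACGTG holds ACGTG once on each strand, and it then counts as 2 matches. Windows were at hand for 9 of the 10 genes, all but Epas1, and each of these 9 genes had at least 1 match in 1 of its windows. Counted by window, with the windows of 1 gene counted separately, 10 of 12 held a core. The share was 38.6% of the 32851 windows of the same length for all genes. Because the genes were chosen by name and several glycolytic genes are classical HIF-1 targets, no conclusion is drawn from these shares. Ldha had the most, with 5 matches in its first window, but that window lies wholly inside the annotated gene. So do the second Ldha window, those of Pfkp and Hif1a, and the second windows of Hk1 and Pdk1. The counts include these windows, and the share for all genes was counted without regard to gene bounds too. For Hk1, Pfkp, Ldha and Hif1a every match lay in a window inside the gene. The 4 sequences below are shown because they stand before the genes for glucose uptake (Slc2a1), glucose phosphorylation (Hk2) and pyruvate control (Pdk1 and Pdk4), and they were selected after the expression values were seen. They run 5' to 3' in the direction of the gene, with the HIF cores in capitals. For Pdk1 the last 9 bases of the window were left out because they lie inside the annotated gene. A match is a description of the letters and does not show that HIF binds there.
Slc2a1 (chr4:119108495-119108744, plus strand): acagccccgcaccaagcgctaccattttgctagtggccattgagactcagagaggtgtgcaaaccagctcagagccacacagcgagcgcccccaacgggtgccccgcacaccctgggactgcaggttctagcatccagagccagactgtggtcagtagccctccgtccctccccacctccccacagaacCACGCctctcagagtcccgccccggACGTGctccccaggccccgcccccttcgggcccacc
Hk2 (chr6:82774455-82774704, minus strand): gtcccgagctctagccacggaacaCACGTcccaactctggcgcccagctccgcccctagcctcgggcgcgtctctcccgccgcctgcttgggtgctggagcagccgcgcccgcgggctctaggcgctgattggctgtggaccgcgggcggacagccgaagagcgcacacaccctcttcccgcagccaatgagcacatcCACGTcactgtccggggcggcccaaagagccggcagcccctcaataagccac
Pdk1 (chr2:71872974-71873214, plus strand): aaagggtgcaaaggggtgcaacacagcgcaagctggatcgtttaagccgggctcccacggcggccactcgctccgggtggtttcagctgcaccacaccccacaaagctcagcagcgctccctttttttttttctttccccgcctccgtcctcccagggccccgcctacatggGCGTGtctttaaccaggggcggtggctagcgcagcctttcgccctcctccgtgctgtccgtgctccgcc
Pdk4 (chr6:5496279-5496528, minus strand): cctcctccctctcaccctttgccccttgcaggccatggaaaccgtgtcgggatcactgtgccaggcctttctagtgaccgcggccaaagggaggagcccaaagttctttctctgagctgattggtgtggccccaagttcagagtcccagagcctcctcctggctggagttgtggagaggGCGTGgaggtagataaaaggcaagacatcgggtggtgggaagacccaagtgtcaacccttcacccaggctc

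Median intensity per array lay between 128 and 141, and the labels name no batch. Markers of alveolar type 2 cells, the lung's surfactant producers, were tested for 7 of 8 genes, and their summed intensity lay between 103152 and 131923. Control 1 and R899X normal RVSP 1 stood apart from the other arrays. The mean root mean square log2 distance to the other arrays was 0.496 for control 1 and 0.492 for R899X normal RVSP 1. No other array exceeded 0.42. Both also had the highest beta-actin ratios of 3' to 5' signal, which reflect RNA integrity and labelling, at 1.89 and 1.64. The remaining arrays lay between 1.27 and 1.45. The same ratio for Gapdh did not single out these arrays. It was 0.973 in control 1 and 1.03 in control 2, above every R899X array. It was 0.7 and 0.875 in the normal RVSP mice and 0.721 and 0.74 in the high RVSP mice. Over the brightest probe sets of the 10 genes, mice of the same group were no closer than mice of different groups, with an average root mean square log2 distance of 0.312 for the 3 pairs within a group and of 0.288 for the 12 pairs between groups.

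No probe set of the 10 genes passed the test in any comparison. With limma, 0 of the 21 tested probe sets passed an adjusted p of 0.05 in any comparison, beside 0% of all 27022 tested probe sets. The unadjusted p was under 0.05 for 1 of the 21 in R899X normal RVSP against control, beside 4.34% of all probe sets. It was under 0.05 for 2 in R899X high RVSP against control, beside 5.65%, for 0 in R899X high against normal RVSP, beside 2.62%, and for 1 in all R899X against control, beside 5.92%. The brightest probe set stands for each gene below. Differences are in log2(intensity + 16), which understates those of dim probe sets, and values after ± are standard errors from the fit. With 2 mice in each group the intervals were wide: the 95% intervals of 9, 9 and 10 of the 10 genes lay within a 2-fold change either way in normal RVSP against control, high RVSP against control and high against normal RVSP.

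**Figure D1:**
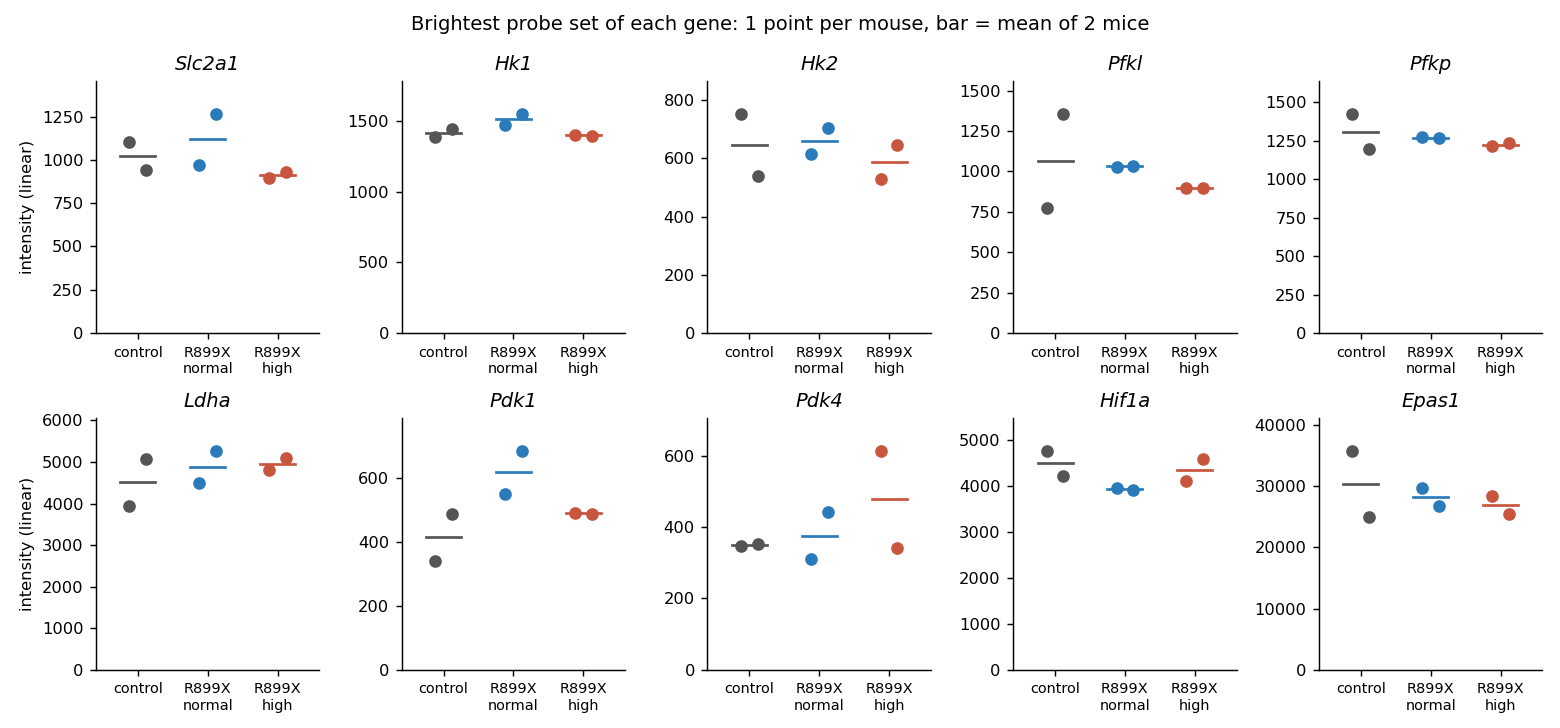
Intensity (linear scale from 0) of the brightest probe set of each gene in the 3 groups, with 1 point per mouse and a bar at the mean of 2 mice. Pdk1 was highest in the R899X normal RVSP mice, at 549 and 686, and Pdk4 reached 615 in 1 of the high RVSP mice, against 341 in the other.

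Slc2a1 encodes GLUT1, the transporter for basal glucose uptake. Its brightest probe set read 1103 and 939.9 in the controls, 971 and 1266 in the normal RVSP mice and 896 and 932 in the high RVSP mice. Both high RVSP mice lay below all other mice, though control 2 at 939.9 was nearly as low. The difference was -0.28 ± 0.19 for high against normal RVSP (95% interval -0.71 to 0.16) and -0.15 ± 0.19 for high RVSP against control. The first was -0.46 without R899X normal RVSP 1 and -0.09 without R899X normal RVSP 2, and the second was -0.04 without control 1 and -0.27 without control 2. The other 2 probe sets of Slc2a1 did not show this order, since both had their highest value in R899X high RVSP 2, at 459.6 and 321. Their differences for high against normal RVSP were 0.12 ± 0.22 and 0.02 ± 0.22.

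Hexokinases phosphorylate glucose and so keep it in the cell. Hk1, the broadly expressed form, read 1383 and 1445 in the controls, 1473 and 1549 in the normal RVSP mice and 1401 and 1394 in the high RVSP mice. Both normal RVSP mice were above the others, but the whole range spanned only 1.12-fold, and 0.936% of all tested probe sets varied less across the 6 arrays. The difference between normal RVSP and control was 0.09 ± 0.15 (95% interval -0.25 to 0.44). Control 2 lay above both high RVSP mice. The second Hk1 probe set, unlike the brightest, had its lowest values in both controls, at 373 and 358, with 466 and 385 in the normal RVSP mice and 403 and 395 in the high RVSP mice. Its differences from control were 0.20 ± 0.19 and 0.12 ± 0.19. Hk2, the inducible form of muscle and fat, read 753 and 539 in the controls, 615 and 704 in the normal RVSP mice and 531 and 645 in the high RVSP mice. The 3 groups overlapped, and the control mice alone covered nearly the whole range. Its difference from control was 0.05 ± 0.22 for normal RVSP and -0.12 ± 0.22 for high RVSP, and without control 1 these were 0.28 and 0.12. For high against normal RVSP it was -0.17 ± 0.22, and -0.26 without R899X normal RVSP 1.

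Phosphofructokinase catalyses the committed step of glycolysis, and Pfkl and Pfkp encode its liver-type and platelet-type subunits. Pfkl read 773 and 1356 in the controls, 1028 and 1036 in the normal RVSP mice and 898 and 897 in the high RVSP mice. All 4 transgenic mice lay between the controls, and the high RVSP mice lay below the normal RVSP mice, a difference of -0.20 ± 0.25. Its second probe set had the same order, with 665 and 945 in the controls, 850.1 and 891 in the normal RVSP mice and 798 and 793 in the high RVSP mice. The difference from control turned on which control was kept: for high RVSP it was -0.59 without control 1 and 0.21 without control 2. The third Pfkl probe set, below the filter, lay between 45.8 and 108.

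Pfkp was level on its brightest probe set and not on the dimmer ones. The brightest read 1423 and 1194 in the controls, 1269.9 and 1267 in the normal RVSP mice and 1212 and 1231 in the high RVSP mice, a difference of -0.09 ± 0.16 for high RVSP against control. A second probe set read 197 and 189 in the controls, 240.1 and 235 in the normal RVSP mice and 275 and 343 in the high RVSP mice. All 4 transgenic mice were above both controls on it, and both high RVSP mice were above both normal RVSP mice. Its difference for high RVSP against control was 0.63 ± 0.22 (unadjusted p = 0.0201, limma adjusted p = 0.857), and for all R899X against control it was 0.46 ± 0.19 (adjusted p = 0.832). The third read 77.7 and 170.5 in the controls, 177 and 196 in the normal RVSP mice and 176 and 87.7 in the high RVSP mice, so that control 1 and R899X high RVSP 2 were both low. Which transcripts of Pfkp each probe set reads was not established.

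Ldha encodes the lactate dehydrogenase subunit that favours lactate formation. Its only probe set read 3949 and 5081 in the controls, 4499 and 5273 in the normal RVSP mice and 4818 and 5091 in the high RVSP mice. Control 1 was lowest and the other mice overlapped across groups. The difference from control was 0.12 ± 0.17 for normal RVSP and 0.14 ± 0.17 for high RVSP (95% interval -0.26 to 0.54). Without control 1, whose beta-actin ratio was also the highest, these were -0.06 and -0.04.

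Pdk1 and Pdk4 encode kinases that switch off pyruvate dehydrogenase. PDK1 is induced by HIF-1, and PDK4 is induced by fasting and fatty acids in heart and skeletal muscle. Pdk1 read 341 and 487 in the controls, 549 and 686 in the normal RVSP mice and 492 and 487 in the high RVSP mice. Both normal RVSP mice were above the other 4 mice, and high RVSP mice were level with control 2. The difference between normal RVSP and control was 0.57 ± 0.23, the largest in size among the 10 genes in that comparison (95% interval 0.05 to 1.09, unadjusted p = 0.0355, limma adjusted p = 0.987). It was 0.32 without control 1 and 0.82 without control 2. Leaving out R899X normal RVSP 1 gave 0.73, and leaving out this array as well as control 1 gave 0.48. The difference between high RVSP and control, 0.25 ± 0.23, was 0.01 without control 1, and that between high and normal RVSP, -0.32 ± 0.23, was -0.47 without R899X normal RVSP 1 and -0.16 without R899X normal RVSP 2. A second Pdk1 probe set also had its highest values in the normal RVSP mice, at 278 and 246 in the controls, 320 and 352 in the normal RVSP mice and 247 and 264 in the high RVSP mice, with differences of 0.34 ± 0.21 for normal RVSP against control and -0.37 ± 0.21 for high against normal RVSP. On it the high RVSP mice overlapped the controls, at -0.03 ± 0.21, against 0.25 ± 0.23 on the brightest probe set. The third read between 53.9 and 168, with R899X normal RVSP 2 at 59.6 and R899X normal RVSP 1 at 168, and so did not share that. The remaining one, below the filter, lay between 28.3 and 107. Cell type markers were set beside Pdk1 in normal RVSP against control and in high against normal RVSP. Most markers of smooth muscle and pericytes, ciliated cells, adipocytes and muscle lay to the same sides of 0 as Pdk1 in both. So did most endothelial and alveolar type 2 markers, with smaller medians. Neutrophil and macrophage markers and red cell markers did not do so in both comparisons, and no marker passed the threshold. In normal RVSP against control, 9 of 9 smooth muscle and pericyte markers, 9 of 9 ciliated cell markers and 6 of 6 measured adipocyte markers were above 0, with medians of 0.26, 0.29 and 0.42. In high against normal RVSP, 9 of 9, 8 of 9 and 6 of 6 were below 0, with medians of -0.26, -0.20 and -0.28. On each of these lists control 1 had the lowest mean log2 deviation from the 6-array mean, at -0.29, -0.54 and -0.42. Control 2 stood at 0.10, 0.11 and -0.15. The normal RVSP mice stood at 0.23 and 0.10, at 0.18 and 0.21, and at 0.03 and 0.55. Of the cardiac markers, 8 of 13 were above 0 in normal RVSP against control (median 0.15) and 13 of 13 were below 0 in high against normal RVSP (median -0.74). Of the 4 skeletal muscle markers, 3 were above 0 in the first comparison (median 0.47) and 3 below 0 in the second (median -0.56). The largest of these was Mb, myoglobin, named after its values were seen, which read 636 and 662 in the controls, 1158 and 1027 in the normal RVSP mice and 440.1 and 317 in the high RVSP mice. Its differences were 0.73 ± 0.20 and -1.51 ± 0.20 (unadjusted p = 7.61e-05 for the second, limma adjusted p = 1). In normal RVSP against control and in high against normal RVSP, endothelial markers had medians of 0.11 and -0.05. Of these, 7 of 10 were above 0 in the first comparison and 6 of 10 below 0 in the second. Alveolar type 2 markers had medians of 0.02 and -0.02, with 4 of 7 above 0 in the first and 4 of 7 below 0 in the second. Neutrophil and macrophage markers had medians of 0.07 and 0.05, with 5 of 8 above 0 in the first comparison and 6 of 8 above 0 in the second. The 2 measured red cell markers had medians of -0.15 and 0.10. In high RVSP against control, where Pdk1 was at 0.25 ± 0.23, 13 of 13 cardiac markers were below 0 (median -0.76). In that comparison 5 of 9 smooth muscle and pericyte, 3 of 6 adipocyte and 2 of 4 skeletal muscle markers were above 0. Of the ciliated cell markers, 8 of 9 were above 0 there (median 0.29). The part of these cell types in the differences of Pdk1 was not tested.

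Pdk4 read 348 and 354 in the controls, 309.7 and 442 in the normal RVSP mice and 615 and 341 in the high RVSP mice. Only R899X high RVSP 1 was clearly higher, and the 3 groups overlapped. The difference for high RVSP against control was 0.37 ± 0.30 (95% interval -0.32 to 1.06), and it became -0.04 when R899X high RVSP 1 was left out and 0.78 when the other high RVSP mouse was left out. For high against normal RVSP it was 0.30 ± 0.30, and 0.05 without R899X normal RVSP 1. Cardiac muscle, a tissue rich in PDK4, was read by 13 of 14 markers; their summed intensity was 27133 in the high RVSP mouse with high Pdk4 and 14531 in the other, against 29436 to 38439 in the other mice. The 4 of 9 skeletal muscle markers measured summed to 949 and 760.5 in the high RVSP mice, in the same order, and to 1117 to 1935 in the others. For adipocyte markers, of which 6 of 10 were measured, the sums were 5585 and 5399.9 in the high RVSP mice, against 5986 to 7403. The adipocyte sum is mostly Lpl, and as a mean log2 deviation from the 6-array mean the same list stood at 0.16 in the lung with high Pdk4, below only R899X normal RVSP 2 at 0.55. The part of these tissues in the Pdk4 values was not tested.

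**Figure D2:**
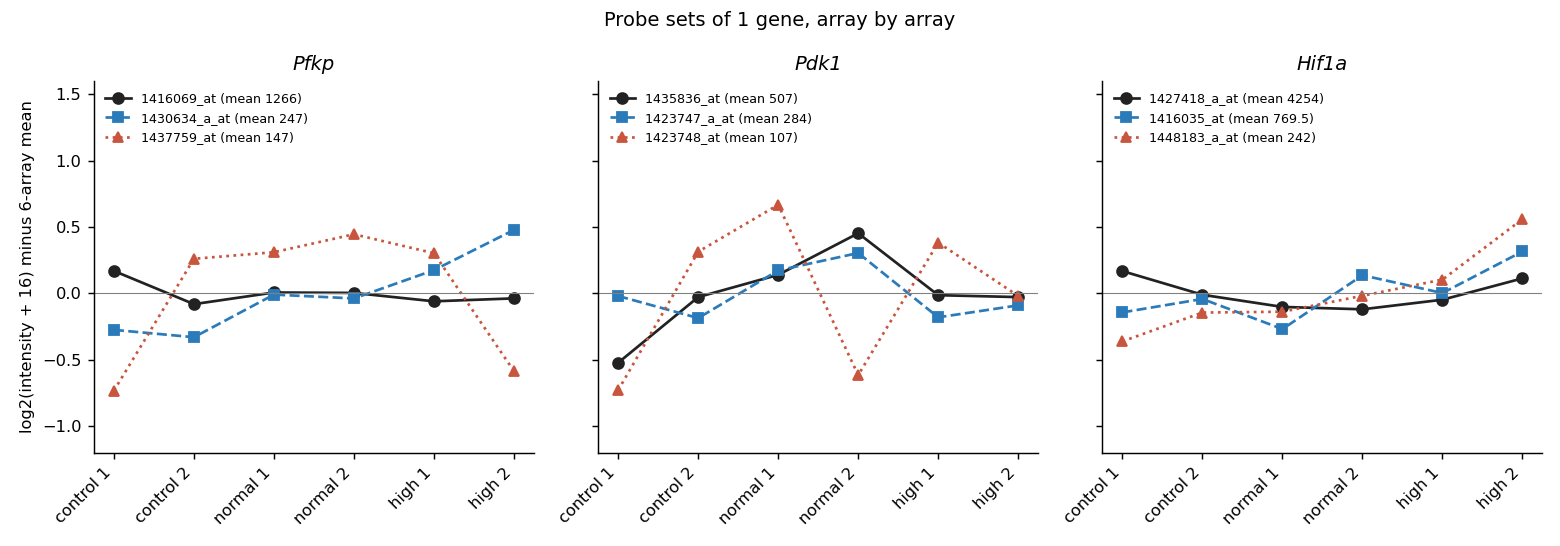
Log2(intensity + 16) minus its mean over the 6 arrays, for the 3 tested probe sets each of Pfkp, Pdk1 and Hif1a, array by array; lines join readings of 1 probe set, and arrays within a group have no order. The first Pdk1 probe sets both peak in R899X normal RVSP 2, whereas the 2 dimmer Hif1a probe sets peak in R899X high RVSP 2, where they read 953 and 357.

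Hif1a encodes the oxygen-regulated subunit of HIF-1. Its brightest probe set read 4767 and 4211 in the controls, 3951 and 3902 in the normal RVSP mice and 4103 and 4589 in the high RVSP mice. Both normal RVSP mice were below the other 4, with a difference from control of -0.19 ± 0.15 (95% interval -0.53 to 0.15), which was -0.10 without control 1. The high RVSP mice overlapped the controls, at -0.05 ± 0.15. A dimmer probe set read 181 and 213 in the controls, 214 and 234 in the normal RVSP mice and 256 and 357 in the high RVSP mice. On it both high RVSP mice were above all others, by 0.59 ± 0.24 against control (unadjusted p = 0.0426, limma adjusted p = 0.857). The probe set of middle brightness read 689 and 740.1 in the controls, 630.2 and 839.9 in the normal RVSP mice and 764 and 953 in the high RVSP mice, a difference of 0.25 ± 0.21 for high RVSP against control. The brightest and the dimmer probe sets of Hif1a therefore differed in sign in that comparison. For high against normal RVSP all 3 lay above 0, between 0.14 and 0.41, and none passed. The remaining one, below the filter, lay between 9.1 and 55.3.

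Epas1 encodes HIF-2 alpha. Its brighter probe set read 35812 and 24977 in the controls, 29641 and 26691 in the normal RVSP mice and 28457 and 25405 in the high RVSP mice. The controls held both the highest and the lowest value, and the 4 transgenic mice lay between them. The difference was -0.09 ± 0.20 for normal RVSP and -0.15 ± 0.20 for high RVSP against control. Without control 1 these were 0.17 and 0.11. The summed intensity of 10 of 10 endothelial markers was lowest in control 1, at 52121, against 53574 to 62754 in the others. In control 1 the brighter Epas1 probe set was highest, at 35812, and the dimmer one lowest, at 1853. The dimmer one read 1854 in R899X normal RVSP 1, where the endothelial sum was highest, at 62754. The part of endothelial cells in the Epas1 values was not tested. The dimmer Epas1 probe set read 1853 and 2103 in the controls, 1854 and 1999.5 in the normal RVSP mice and 2078 and 2518 in the high RVSP mice, with a difference of 0.25 ± 0.17 for high against normal RVSP.

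**Figure D3:**
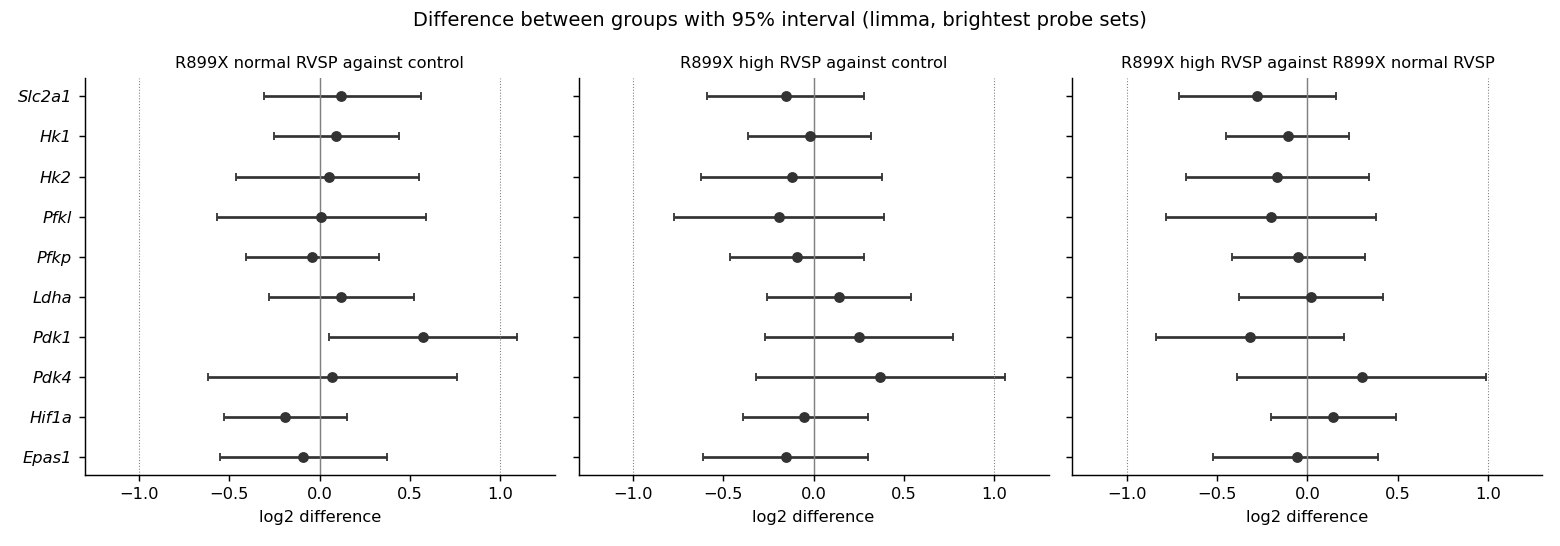
Log2 differences between groups (points) with 95% intervals from limma, for the brightest probe set of each of the 10 genes in 3 comparisons; dotted lines mark a 2-fold change. The interval of Pdk1 in R899X normal RVSP against control (0.05 to 1.09) is the only one of the 30 drawn that does not include 0, and it did not pass after adjustment.

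Across the 10 genes, R899X normal RVSP against control gave 7 differences above 0 and 3 below, with a median of 0.06, beside a median of 0.00 over all tested probe sets. R899X high RVSP against control gave 3 above and 7 below, with a median of -0.07, beside 0.00. These 2 comparisons share the control mice. R899X high against normal RVSP gave 3 above and 7 below, with a median of -0.09, beside 0.01. In the last of these, the arrays of the 2 groups did not overlap for 6 genes, beside 32.2% of all tested probe sets. Slc2a1, Hk1, Pfkl, Pfkp and Pdk1 were lower in both high RVSP mice, beside 15.5% of all probe sets, and Hif1a was higher, beside 16.7%. Over all 21 tested probe sets the counts were 8 lower and 4 higher. These genes were read on the same 4 arrays and are not independent, and no difference exceeded 0.32 in size on the brightest probe sets. In normal RVSP against control, Hk1 and Pdk1 were higher without overlap, beside 14.4%, and Hif1a was lower, beside 15.1% (either direction 3 of 10, beside 29.5%). In high RVSP against control, Slc2a1 was lower without overlap, beside 18.2%, and 0 of the 10 were higher, beside 19.1% (either direction 1 of 10, beside 37.3%). For all 4 R899X mice against control the differences of the 10 genes lay between -0.12 and 0.41, with a median of -0.03, and 0 of the 10 were higher or lower without overlap, beside 7.52% and 7.71% (15.2% in either direction). Over the 21 tested probe sets, 3 were higher and 0 lower without overlap in that comparison, beside the same shares. Those counts were 7 higher and 1 lower in normal RVSP against control, and 4 higher and 1 lower in high RVSP against control.

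The other genes of these pathways were described from lists of known members. Of 25 further glycolysis genes 19 were measured, and 0 passed in either direction in any comparison. Their median differences were 0.08 for normal RVSP against control, -0.01 for high RVSP against control and -0.09 for high against normal RVSP. Slc2a3, the GLUT3 transporter, read 902 and 1402 in the controls, 1045 and 1319.9 in the normal RVSP mice and 1536 and 1226 in the high RVSP mice, and the groups overlapped. Pkm, pyruvate kinase, read 2331 and 2584 in the controls, 3228 and 2642 in the normal RVSP mice and 2434 and 2439 in the high RVSP mice. Its difference for high against normal RVSP was -0.26 ± 0.16. No tested probe set carried Gapdh as its only symbol.

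Eno3, the muscle enolase, had an unadjusted p of 0.0408 for high against normal RVSP in limma, with intensities of 832 and 543 against 1319 and 874 and a difference of -0.66 ± 0.27 (adjusted p = 1). The most negative difference of the glycolysis list in that comparison was that of Pgam2, the muscle phosphoglycerate mutase, at -0.83 ± 0.42, a gene named after its value was seen. Pgam2 read 199 and 65.2 in the high RVSP mice against 235 and 202 in the normal RVSP mice, so that only R899X high RVSP 2 was clearly lower. In the same comparison 13 of 13 measured cardiac markers were below 0, with a median of -0.74, and their summed intensity was 27133 and 14531 in the high RVSP mice against 38439 and 29436 in the normal RVSP mice. The 4 measured skeletal muscle markers went both ways, with Mb at -1.51, Ckm, muscle creatine kinase, at -1.11, Mylpf, a myosin light chain, at -0.01 and Acta1, skeletal alpha-actin, at 0.52. The part of muscle tissue in these differences was not tested.

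Pyruvate dehydrogenase, its regulators and the mitochondrial pyruvate carrier had 12 of 13 genes measured, with 0 passing in any comparison. Median differences were 0.04, -0.05 and -0.09 in the same order, and the largest in size for a comparison with control were Pdp2, a phosphatase that reactivates the enzyme complex, at -0.47 ± 0.24 in high RVSP, and Mpc1, a carrier subunit, at 0.44 ± 0.22 in normal RVSP. Both were named after their values were seen. HIF partners and oxygen sensors had 14 of 15 measured, 0 passing, and medians of 0.02, 0.02 and -0.03. Arnt, the shared partner of both HIF subunits, read 822 and 1301 in the controls, 815 and 1129 in the normal RVSP mice and 856 and 1018 in the high RVSP mice. These groups overlapped fully.

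HIF target genes outside glycolysis had 21 of 25 measured, 0 passing, and medians of 0.01, -0.03 and -0.09. They did not move in a common direction. In high RVSP against control, 5 of 21 had an unadjusted p under 0.05, beside 5.65% of all probe sets, of which the 3 with the smallest were Ddit4, Adm and Hmox1. Ddit4, an inhibitor of mTOR signalling, read 3009.8 and 1882 in the controls but 3665 and 4424 in the high RVSP mice, which differed by 0.75 ± 0.26. Hmox1, the heme-degrading oxygenase, read 861 and 904 against 459 and 509, a difference of 0.85 ± 0.30. Adm, the vasodilator peptide adrenomedullin, was on the other side of 0, with 154 and 176 against 249 and 281 and a difference of -0.63 ± 0.22. The limma adjusted p was 0.857 for each of these 3 genes. In the normal RVSP mice Ddit4 read 2788 and 3982, Hmox1 453 and 929, and Adm 215 and 201. R899X normal RVSP 2 thus lay above both high RVSP mice for Hmox1 and above R899X high RVSP 1 for Ddit4. In normal RVSP against control P4ha1, a collagen prolyl hydroxylase subunit, read 1234 and 1298 against 1706 and 1879, a difference of -0.50 ± 0.16 (unadjusted p = 0.0147, limma adjusted p = 0.987). In the high RVSP mice P4ha1 read 1252 and 1456, so that all 4 transgenic mice lay below both controls. For all R899X against control, P4ha1, Ddit4 and Adm had the smallest unadjusted p of the 4 of 21 under 0.05 (beside 5.92% of all probe sets), with differences of -0.45 ± 0.14, 0.62 ± 0.23 and -0.48 ± 0.19 (limma adjusted p = 0.832). Vegfa, the endothelial growth factor, read 4732 and 5841 in the controls, 6212 and 4532 in the normal RVSP mice and 5395 and 5641 in the high RVSP mice, with no separation.

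**Figure D4:**
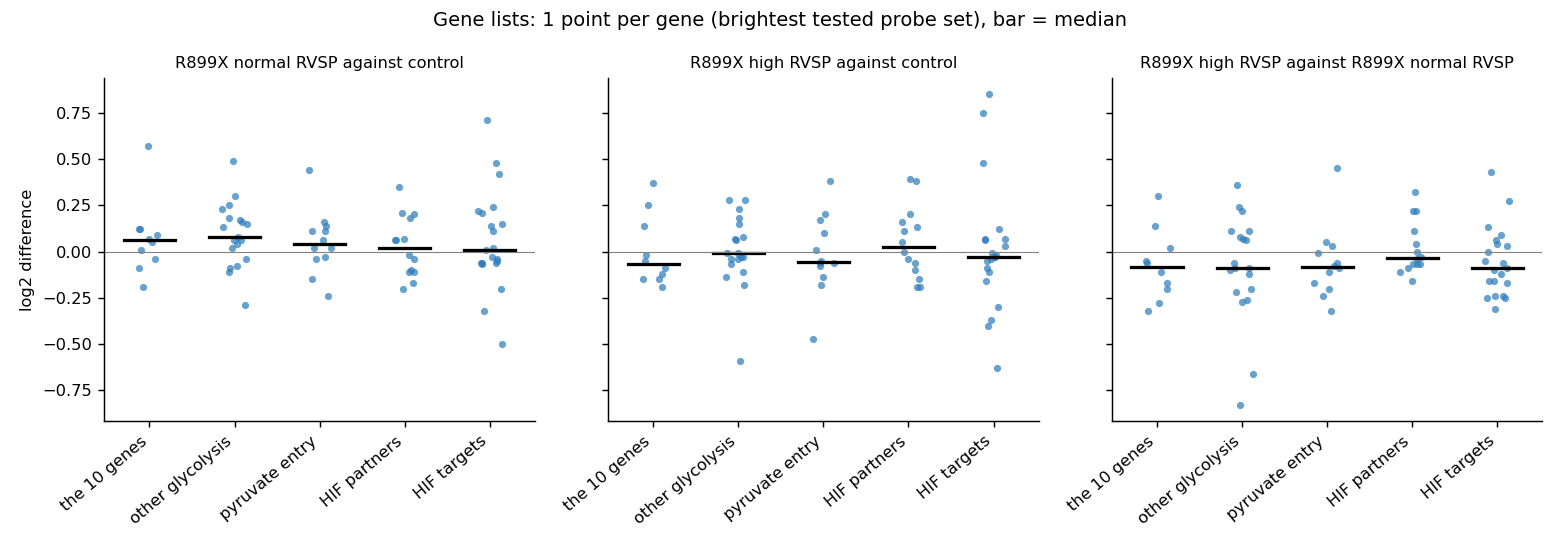
Log2 differences of the measured genes of 5 lists in 3 comparisons, with 1 point per gene (brightest tested probe set, spread sideways at random within a list) and a bar at the median. Medians lie between -0.09 and 0.08 in every list and comparison shown, and the HIF targets reach furthest from 0 in R899X high RVSP against control, from -0.63 for Adm to 0.85 for Hmox1.

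The gene whose profile over the 6 arrays was most like that of Pdk1 was S100a1, a calcium-binding protein of heart and skeletal muscle, with r = 0.989, and for Pdk4 it was Pstpip1, with r = 0.995. For Hif1a it was Rab14 (r = 0.995) and for Epas1 C1qtnf12 (r = 0.996). Kdm1b followed Slc2a1, Anpep Hk1, Hikeshi Hk2, Agap1 Pfkl, Gfra2 Pfkp and Akap13 Ldha, with r between 0.985 and 0.996. These are descriptions over 6 points that share their arrays, each picked from 22247 to 22249 named probe sets, of which 60 to 590 exceeded r = 0.9 for a given gene.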

How the data were processed

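The deposited values are intensities on a linear scale, 1 per probe set and array; the sources used here do not name the algorithm of the authors. Averaged over the 6 arrays, the mean after trimming 2% of values at either end was 500.0 in the values as deposited. Probe sets were named from the platform annotation (34958 with 1 symbol, 932 with several, 9211 not listed). The 64 control probe sets and the 18015 in the lower 40% by mean over the 6 arrays of log2(intensity + 16), below an intensity of about 74.9, were left out. Array medians spanned 0.127 on that scale, under the limit of 0.2, so no further normalization was applied. With R 4.3.3 and limma 3.58.1, group means were fitted to all 6 arrays (3 residual and 5.06 prior degrees of freedom, intensity trend), with two-sided tests and Benjamini-Hochberg adjustment over 27022 probe sets; the code was tested on simulated data. An exact permutation test cannot go below p = 0.333 for 2 against 2 mice or 0.0667 for 4 against 2, so none was used. The number of mice limits the precision. The genes, lists and tests were chosen with earlier results of these data known. All probe sets of the 10 genes are named; of each pathway list (not the cell type marker lists), up to 3 genes a comparison by smallest unadjusted p under 0.05, and Arnt, Vegfa, Slc2a3, Pkm and Gapdh. Pgam2, Pdp2, Mpc1 and the 4 skeletal muscle markers fall outside this rule and were named after their values were seen. Replicate numbers follow accession order and pair nothing. Coordinates are printed only for the promoter sequences shown, in build GRCm38.p6. Alternatives changed the pseudocount, filter, normalization, spread estimate, covariate, arrays and probe set choice.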

Additional observations from a re-analysis of the deposited data

Results flagged for a closer look

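Among the 4 R899X mice, R899X high RVSP 2 lay far from the other 3 on the dimmest tested probe set of Pfkp, at 87.7 against 176 to 196. On the log2(intensity + 16) scale its gap to the nearest mouse was 0.861 of the whole range and exceeded the 95% critical value for 4 samples. On linear intensities, a scale added after the data were seen, the gap was 0.815 of the range and did not exceed it. This was examined for 21 probe sets, and about 1 in 20 such groups passes by chance. Control 1 was also low on this probe set, at 77.7, and the brightest Pfkp probe set did not set R899X high RVSP 2 apart, at 1231 against 1212 to 1269.9.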

How the results depend on the processing

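The count of 0 called probe sets among the 10 genes held under every alternative run, in all 4 comparisons, and 559 of 630 recomputed gene differences kept their sign; the 71 that turned belong to differences of at most 0.37 in size. All differences here are in log2 units, and none of these values passed. When the beta-actin ratio entered the model the sign turned, to Pfkl -0.20, Pfkp 0.02, Ldha -0.03 and Epas1 0.09 (normal RVSP against control), Pfkp 0.03, Ldha -0.14, Pdk1 -0.12, Hif1a 0.03 and Epas1 0.19 (high RVSP against control), Pfkp 0.01, Ldha -0.11 and Epas1 0.10 (high against normal RVSP), Hk1 -0.01, Hk2 0.05, Pfkp 0.03, Ldha -0.08 and Epas1 0.14 (all R899X against control). Without control 1 and R899X normal RVSP 1 together it turned, to Pfkl -0.38, Pfkp 0.08 and Epas1 0.10 (normal RVSP against control), Hk2 0.12, Pfkp 0.03, Ldha -0.04, Hif1a 0.04 and Epas1 0.11 (high RVSP against control), Ldha -0.09 and Epas1 0.01 (high against normal RVSP), Slc2a1 0.19, Hk2 0.25, Pfkp 0.06 and Epas1 0.10 (all R899X against control). With the mean of a gene's tested probe sets in place of the brightest it turned, to Pfkp 0.29 (normal RVSP against control), Hk1 0.05, Pfkp 0.21, Hif1a 0.26 and Epas1 0.03 (high RVSP against control), Epas1 0.09 (high against normal RVSP), Pfkp 0.25 and Hif1a 0.13 (all R899X against control). Leaving out 1 mouse turned 32 more, in results with these ranges over the left-out mice: Pfkl -0.39 to 0.41, Pfkp -0.16 to 0.09, Ldha -0.06 to 0.30, Epas1 -0.35 to 0.17, Hk2 -0.19 to 0.28, Slc2a1 -0.07 to 0.31, Pdk4 -0.17 to 0.32 (normal RVSP against control), Hk2 -0.35 to 0.12, Pfkp -0.22 to 0.03, Ldha -0.04 to 0.33, Hif1a -0.14 to 0.04, Epas1 -0.41 to 0.11, Hk1 -0.05 to 0.02, Pfkl -0.59 to 0.21, Pdk4 -0.04 to 0.78 (high RVSP against control), Ldha -0.09 to 0.14, Epas1 -0.15 to 0.02, Pdk4 -0.11 to 0.71 (high against normal RVSP), Slc2a1 -0.13 to 0.10, Hk2 -0.27 to 0.20, Pfkp -0.19 to 0.06, Ldha -0.05 to 0.31, Epas1 -0.38 to 0.14, Pfkl -0.49 to 0.31 (all R899X against control). The cause was not tested. The ranges over left-out mice of the median over the 10 genes were -0.03 to 0.14, -0.09 to 0.02, -0.12 to -0.07 and -0.07 to 0.08 for normal RVSP and high RVSP against control, for high against normal RVSP, and for all 4 R899X mice against control. That median became 0.02 and 0.08 for high RVSP and for all R899X against control without both arrays, and 0.10 and 0.12 with the mean of probe sets. Over all probe sets, the counts past the threshold were 0 to 4, 0 to 2, 0 to 43 and 0 to 6 when 1 mouse was left out, 131, 313, 56 and 228 without both arrays (fits with 1 residual degree of freedom and lone mice assumed to vary like the others), and 1 for high RVSP against control with only its own arrays. No paired analysis was possible because the labels give no replicate numbers. Dim probe sets limit what can be read: 3 of the 24 fell below the filter.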
